A study of Mus musculus with 2 samples.

Results

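The T cell receptor genes described here are 9 mouse genes, chosen by name: the CD3 and zeta chain genes Cd3d, Cd3e, Cd3g and Cd247, the coreceptor genes Cd4 and Cd8a, the kinase genes Lck and Zap70, and the adaptor gene Lat. All 9 had a probe among 13716 genes measured in spleen. The knockout-labelled array was hybridised with RNA from spleen of male mice labelled Loxl3-/-, and the wild-type array with RNA from spleen of male Loxl3+/+ mice. The animals were healthy and untreated, and spleens were taken fresh. Age, strain, the number of animals behind each RNA and the deleted part of Loxl3 are not given in the sources used here. Loxl3 encodes a lysyl oxidase, an enzyme family known for crosslinking collagen and elastin. Each group is a single array, which leaves 0 residual degrees of freedom: no test was run, no p-value is given, and differences describe these 2 arrays alone.

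A T cell recognises peptide on MHC molecules through its antigen receptor, whose CD3 and zeta chains carry the signal into the cell. The coreceptors CD4 and CD8 bind MHC and bring the Src-family kinase LCK to the receptor, and LCK phosphorylates the tyrosine motifs of the CD3 and zeta chains. ZAP-70 docks on these motifs and phosphorylates the membrane adaptor LAT, which gathers the enzymes and adaptors of calcium and Ras signalling. In spleen the T cells lie mainly in the sheaths around the arterioles of the white pulp. LAT is also known from NK cells, mast cells and platelets, so its RNA in whole spleen need not all come from T cells.

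The arrays were single-colour Agilent arrays, and signals are background-corrected intensities of the scanner software. The knockout-labelled array was the brighter, with a 75th percentile of 1400.0, against 974.5 for wild type. Signals were divided by these percentiles, and each difference is the scaled log2 signal of knockout-labelled RNA minus that of wild-type RNA. Errors after ± come from the scanner software's own estimate for each spot, and animals' variation is not part of them. The Loxl3 probe read 125 in knockout-labelled RNA and 117 in wild-type RNA, a difference of −0.43 ± 0.30. The sources used here do not say whether it lies in the deleted part, so the array goes by its label. Of all genes measured, 310 (2.26%) were lower by 2-fold or more in knockout-labelled RNA and 352 (2.57%) higher, 4.83% in all. The higher genes made up 53.2% of these, against 41.2% with each array scaled on its median and 70.9% with scaling on probes above background on both arrays.

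Lat was the only T cell receptor gene that differed by 2-fold, and it was lower on the knockout-labelled array. The other 8 genes had differences between −0.46 and 0.83, with a median of −0.13. Of the 9 genes, 6 were below 0 and 3 above, against 59.2% of all genes below 0. Their median was −0.20, beside −0.09 for all genes measured. The count at 2-fold was 1 of 9 lower and 0 of 9 higher, beside shares of 2.26% lower, 2.57% higher and 4.83% either way over all genes. Nothing is read from that count. In these bulk samples fewer T cells and less RNA per T cell cannot be told apart.

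**Figure D1:**
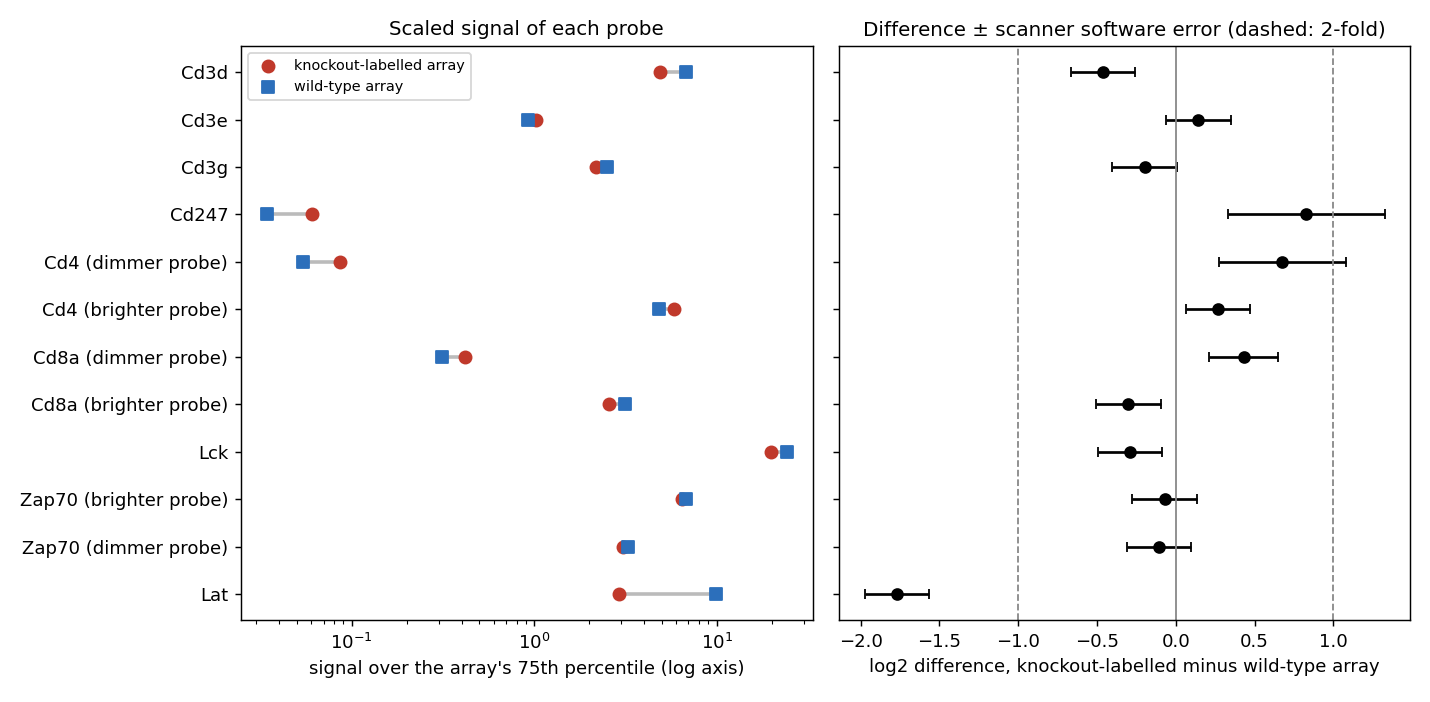
Scaled signal of every probe of the 9 genes on the knockout-labelled array (circles) and the wild-type array (squares), on a log axis, and the log2 difference of each probe with the scanner software's error. The Lat probe is at −1.77, past the dashed 2-fold line, and the other 11 probes lie between −0.46 and 0.83.

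The stretches before the transcription starts of Lat and of the CD3 genes are shown because Lat is the gene that differed most and the CD3 genes are neighbours on chromosome 9 with small differences. They are the 250 bases upstream of the start in RefSeq's table of the build GRCm38.p6, which is not the array's build mm9. Lat lies at chr7:126369569-126369818 on the minus strand, Cd3g at chr9:44980432-44980681 on the minus strand, Cd3d at chr9:44981536-44981785 on the plus strand and Cd3e at chr9:45009612-45009861 on the minus strand. Capitals mark matches, on either strand, to AGGAAG (bound by ETS factors), CTTTGA (TCF factors) or CAGNTG (E-box factors). TGTGGT (RUNX factors) and TATAAA were searched too, and no match overlapped another.
Lat: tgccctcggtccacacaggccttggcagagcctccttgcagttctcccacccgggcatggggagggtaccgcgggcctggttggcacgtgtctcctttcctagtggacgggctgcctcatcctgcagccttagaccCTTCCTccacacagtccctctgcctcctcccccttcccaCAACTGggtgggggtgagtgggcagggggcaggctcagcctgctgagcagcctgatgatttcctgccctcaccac
Cd3g: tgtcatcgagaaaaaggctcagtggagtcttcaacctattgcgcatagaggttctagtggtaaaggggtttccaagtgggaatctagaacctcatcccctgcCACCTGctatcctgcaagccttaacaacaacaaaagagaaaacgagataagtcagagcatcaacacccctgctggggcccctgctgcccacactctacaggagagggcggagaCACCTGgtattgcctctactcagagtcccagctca
Cd3d: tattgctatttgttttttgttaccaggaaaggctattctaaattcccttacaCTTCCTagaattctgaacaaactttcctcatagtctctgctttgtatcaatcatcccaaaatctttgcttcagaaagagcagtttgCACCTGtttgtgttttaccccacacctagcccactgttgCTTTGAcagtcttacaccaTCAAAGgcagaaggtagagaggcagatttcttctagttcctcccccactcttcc
Cd3e: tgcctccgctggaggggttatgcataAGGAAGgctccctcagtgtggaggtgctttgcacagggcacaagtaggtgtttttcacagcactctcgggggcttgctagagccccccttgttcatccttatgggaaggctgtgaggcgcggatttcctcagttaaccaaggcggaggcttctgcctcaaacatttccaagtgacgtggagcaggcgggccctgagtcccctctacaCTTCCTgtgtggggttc

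Cd3g and Cd3d are read away from each other, from starts 1355 bases apart. The Lat stretch holds 1 match to AGGAAG and 1 to CAGNTG, and its content of G and C is 65.2%. Cd3d, at 41.2% G and C, holds 1 match to AGGAAG, 2 to CTTTGA and 1 to CAGNTG. The Cd3e stretch, at 57.2%, has 2 matches to AGGAAG, and the Cd3g stretch, at 51.6%, has 2 to CAGNTG. Among 32851 such stretches in the table the median content of G and C was 52.4%, and 29.5% held AGGAAG, 13.8% CTTTGA, 44.8% CAGNTG, 14.0% TGTGGT and 12.4% TATAAA. These letters are a description of the sequence and say nothing of which factors bind there. Of the 9 genes, 8 matched an entry of the table by symbol, and Cd4 did not.

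The CD3 chain genes, each read by 1 probe, had differences of small size. Cd3d, encoding the delta chain, had a signal of 6872 in knockout-labelled RNA and 6588 in wild-type RNA, a scaled difference of −0.46 ± 0.20. Cd3g, encoding the gamma chain, had 3051 in knockout-labelled RNA and 2437 in wild-type RNA, or −0.20 ± 0.20. Cd3e, encoding the epsilon chain that pairs with either of them, had 1435 in knockout-labelled RNA and 906 in wild-type RNA, or 0.14 ± 0.21. Cd3d was therefore at 0.726 times and Cd3g at 0.871 times the wild-type level, and the differences of Cd3g and Cd3e were within the software's error. The chains assemble together at the protein level, and these values concern RNA alone. By rank among all genes, 15.7% had a lower difference than Cd3d, 39.0% than Cd3g and 71.4% than Cd3e.

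Cd247, encoding the zeta chain with its repeated tyrosine motifs, had a dim signal. Its probe read 85.0 in knockout-labelled RNA and 33.3 in wild-type RNA, where it was not well above background. Its measured difference was 0.83 ± 0.50. With the lowest detected wild-type probe in place of its own wild-type signal, it was 1.41-fold higher in knockout-labelled RNA. That bound, 0.50 in log2, is no larger than the software's error and is not a strict limit. With normexp background correction the difference was 0.21, below that bound. With the bound in place of the measured value the median of the 9 genes stayed at −0.20. Among all genes, 96% had a lower measured difference.

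The coreceptor genes had 2 probes each, and those of Cd8a went opposite ways. The brighter Cd4 probe read 8125 in knockout-labelled RNA and 4702.5 in wild-type RNA, a scaled difference of 0.27 ± 0.20. The dimmer Cd4 probe was printed 10 times, and its spots lay between 113 and 135 (median 121) on the knockout-labelled array, against 38.2 to 67.9 (median 54.5) on the wild-type array. No spot of the 2 arrays overlapped, before or after scaling, and the mean difference was 0.68 with an SD of 0.28 over the 10 spots. All 10 spots were well above background in knockout-labelled RNA, and 7 of the 10 in wild-type RNA. Both Cd4 probes thus gave a positive difference, under 2-fold.

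The brighter Cd8a probe, also printed 10 times, read 3419.6 to 4273 (median 3645) in knockout-labelled RNA and 2819 to 3567 (median 2997) in wild-type RNA. After scaling the order turned: spots were at 2.44 to 3.05 times the array's 75th percentile on the knockout-labelled array and at 2.89 to 3.66 times on the wild-type array, and they overlapped only through a spot marked as an outlier. Of its spots, 2 on the knockout-labelled array were marked as outliers by the software and left out, and the 8 remaining pairs of spots had differences between −0.39 and −0.15 (SD 0.07). The probe's difference was −0.30 ± 0.20. The dimmer Cd8a probe, which belongs to another accession, read 587 in knockout-labelled RNA and 303 in wild-type RNA, or 0.43 ± 0.22. The direction of Cd8a is thus unsettled between its probes. Cd8b1, which encodes the CD8 beta chain, was at −0.06 ± 0.20 with signals of 1772 in knockout-labelled RNA and 1287 in wild-type RNA.

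**Figure D2:**
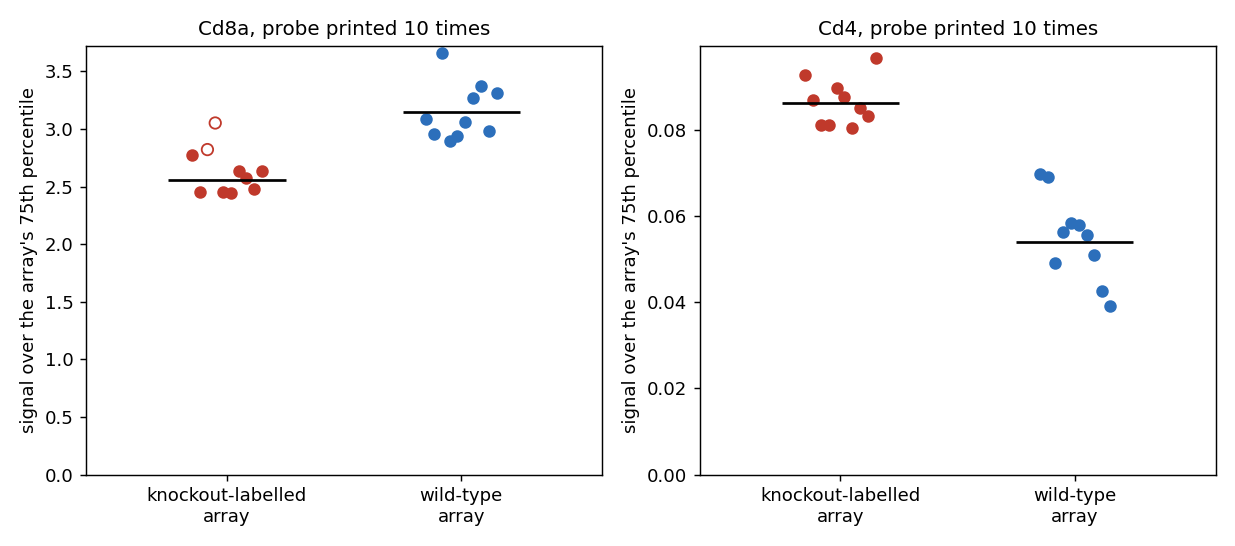
Signal of each spot of the brighter Cd8a probe and of the dimmer Cd4 probe, both printed 10 times, divided by the array's 75th percentile, with a line at the geometric mean and open circles for the 2 spots left out. The Cd4 spots of the knockout-labelled array lie above all those of the wild-type array, and the filled Cd8a spots lie below those of the wild-type array.

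The repeated spots give the technical spread on these arrays. Over 269 probes printed 10 times and above background on both arrays, the SD of the log2 difference between repeated spots had a median of 0.11 and a 90th percentile of 0.26. The Cd8a probe, at 0.07, lay below that median, and the dim Cd4 probe, at 0.28, lay above the 90th percentile. Lat and the CD3 genes were printed once, so for them the software's error is the measure at hand.

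Of the receptor's kinase genes, Zap70 was within the software's error and Lck beyond it, both under 2-fold. Lck, encoding the kinase that starts the cascade, had a signal of 27698 in knockout-labelled RNA and 23584 in wild-type RNA, a difference of −0.29 ± 0.20, which is 0.817 times wild type. Its sign was not stable, since it was at 0.056 with the loess trend removed. Zap70, encoding the kinase that binds the phosphorylated receptor, read 9079.6 in knockout-labelled RNA and 6639 in wild-type RNA with its brighter probe. Its dimmer probe read 4268 in knockout-labelled RNA and 3201 in wild-type RNA. The Zap70 probes gave −0.07 ± 0.20 and −0.11 ± 0.20, within the software's error, and the brighter was at 0.15 with the loess trend removed.

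Lat, the adaptor that ZAP-70 phosphorylates, had a signal of 4081.5 in knockout-labelled RNA and 9693.5 in wild-type RNA. Before any scaling it was the only one of the 9 genes with a lower signal on the knockout-labelled array, at 0.421 times the wild-type signal, since the other 8 were brighter there. After scaling the difference was −1.77 ± 0.20, or 0.293 times the wild-type level, which is 3.41-fold lower. Its error is the software's estimate and not a measured spread, and the median error over all genes was close to it, at 0.21. Of all genes measured, 70 had a lower difference, so Lat ranked 71 of 13716 from the lowest. Relative to the median of the other 8 genes Lat was lower by 3.11-fold, a value that does not depend on the scaling factor. Lat had 1 probe, so no second probe of the gene bears on its value.

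The Lat spot was not marked as an outlier on either array. Its median pixel was 4540.5 over a local background of 17 on the knockout-labelled array, against 9930 over 16 on the wild-type array. The 20 spots nearest to it on the slide had differences between −1.35 and 0.71, with a median of −0.27. The surrounding spots of the CD3 genes had medians between −0.19 and −0.16. In the genome, on chromosome 7, 5 of the 10 genes next to Lat were measured, and they lay between −0.45 and 0.49, with none at 2-fold. Among the neighbours of the other 8 genes, Actr1b, a dynactin subunit gene near Zap70, was the only one at 2-fold. It was well above background in knockout-labelled RNA alone, with a measured difference of 1.07 ± 0.58 and a bound of 2.07-fold higher there.

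**Figure D3:**
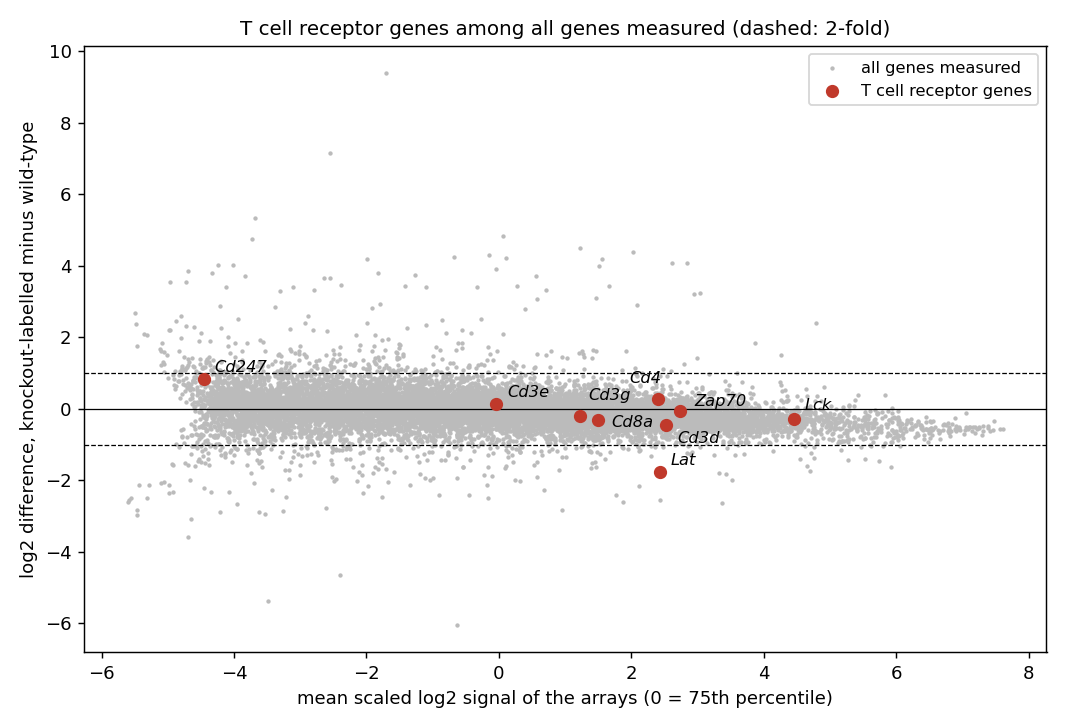
Log2 difference of all 13716 genes measured, against the mean scaled log2 signal of the arrays, with the T cell receptor genes in red. Lat lies at −1.77 below the dashed 2-fold line, among genes brighter than the 75th percentile, and the other 8 genes lie within the 2-fold lines.

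The other genes of the pathway did not differ by 2-fold by their brightest probes. Of 96 further genes in 5 lists, 84 were measured, 44 were below 0 and 40 above, and their median was −0.02, beside −0.09 for all genes. By its brightest probe, none of the 84 measured 2-fold in either direction, beside 2.26% lower and 2.57% higher over all genes, and these differences ran from −0.80 to 0.69. A dimmer probe of the adaptor gene Grb2 was past 2-fold, at 1.19 ± 0.24, against −0.10 ± 0.20 by the brighter one. The lists were written with earlier results of these data known. The genes of the antigen-binding chains, Trac, Trbc1, Trbc2, Trdc, Trgc1 and Trgc2, had no probe named through an accession and were not analysed here. Ptprc, encoding the phosphatase CD45 that keeps LCK active, was at 0.34 ± 0.20.

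Of 15 kinase, phosphatase and ubiquitin ligase genes acting next to the receptor, 9 were below 0 and 6 above, with a median of −0.03. Ubash3b, encoding a phosphatase that restrains the receptor's kinases, was the lowest at −0.80 ± 0.20, with 3521 in knockout-labelled RNA and 4254 in wild-type RNA. Cbl and Cblb, encoding ubiquitin ligases that dampen receptor signalling, were the highest, at 0.69 ± 0.20 and 0.46 ± 0.21. The dimmer probe of Cblb was at 0.24 ± 0.26, within the software's error. Ptpn2, a phosphatase gene, was at −0.49 with its brightest probe, and its other probes were at −0.15 and 0.48. Csk, the kinase gene that holds LCK in check, was at 0.07.

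The list of adaptors, which holds partners of LAT and other adaptors such as Lat2 and Lax1, had the lowest median of these 5 lists. It was −0.12, beside −0.09 for all genes, with 18 of 26 genes below 0, against 59.2% of all genes. Skap1, an adaptor gene of integrin activation, was at −0.66 ± 0.20, and Grap2, encoding the GADS adaptor that links LAT to SLP-76, at −0.60 ± 0.21. Lcp2, encoding SLP-76 itself, was at −0.03 ± 0.21. On the other side Dok2, an inhibitory adaptor gene, was at 0.27 and Cd2ap, which links the CD2 receptor to the cytoskeleton, at 0.24. Signals of Grap2 were 782 in knockout-labelled RNA and 824 in wild-type RNA, so its unscaled signals were close.

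Downstream of LAT, 10 of 25 effector genes were below 0 and 15 above, with a median of 0.03. Nfatc1, a transcription factor gene of the calcium arm, was at 0.65 by its brighter probe and 0.66 by its dimmer one. Plcg1, encoding the phospholipase that binds LAT, was well above background in knockout-labelled RNA alone, with a measured difference of 0.62 ± 0.40. Ppp3r1, the regulatory subunit gene of calcineurin, was at −0.49, and so was the GTPase gene Nras with its brightest probe, while its other probes were at 0.09 and 0.13. Of 16 costimulatory and inhibitory receptor genes, 6 were below 0, and the median was 0.06. Slamf6 was at 0.38 by its brighter probe and 0.90 by its dimmer one, and Cd200 at 0.25. Pdcd1, encoding the inhibitory receptor PD-1, was at −0.38, and Cd2 at −0.29 by its brighter probe and 0.06 by its dimmer one.

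**Figure D4:**
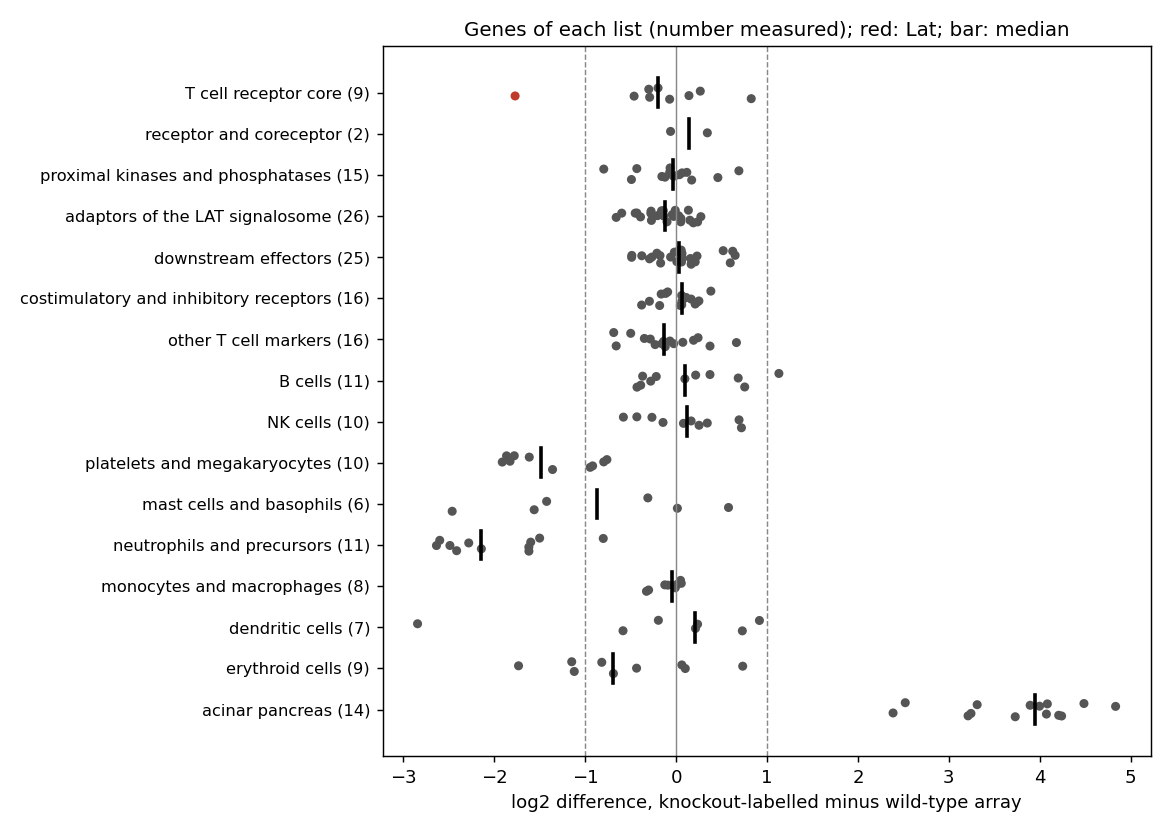
Log2 difference of each measured gene, by list, with a bar at the list's median and Lat in red. The pathway lists and the T cell markers lie within the 2-fold lines apart from Lat, while platelet and neutrophil genes lie to the left and acinar pancreas genes to the right.

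Further markers of T cells were likewise within 2-fold, beside 4.83% of all genes at 2-fold. All 16 were measured, 11 below 0 and 5 above, with a median of −0.13, and 1 of them, Skap1, is also among the adaptors above. Ly6c1 was at −0.69 by its brighter probe and −0.19 by its dimmer one, and Dapl1, a gene of naive and memory T cells, at 0.66. Tcf7, the T cell transcription factor gene, was at 0.37 by its brighter probe and 0.65 by its dimmer one. The summed signal of the 16 markers was 143 times the 75th percentile in knockout-labelled RNA and 176 times in wild-type RNA. Before scaling the sums were 200508 in knockout-labelled RNA and 171056 in wild-type RNA, so the direction of the sum rests on the scaling. The brightest genes weigh most in it.

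Platelets, mast cells and NK cells are known to express Lat. The marker lists of platelets and megakaryocytes, of mast cells and basophils, and of NK cells had medians of −1.49, −0.87 and 0.12. Of 11 platelet and megakaryocyte genes, 10 were measured, all 10 were below 0 and 6 were at least 2-fold lower, beside 2.26% of all genes. Their median was −1.49. Their summed scaled signal was 18.4 in knockout-labelled RNA and 56.0 in wild-type RNA, in units of the 75th percentile. Treml1, a platelet granule receptor gene, was at −1.91, Gp1ba, the von Willebrand receptor gene, at −1.86 and Ppbp, a platelet chemokine gene, at −1.83. Gp1bb was not above background on either array. Of 8 mast cell and basophil genes, 6 were measured, 4 below 0 and 2 above, and 3 were at least 2-fold lower, beside 2.26% of all genes. Their median was −0.87, or −0.69 with a bound used for genes that 1 array did not detect. Their summed scaled signal was 1.99 in knockout-labelled RNA and 2.71 in wild-type RNA. Before scaling the sums were 2781 in knockout-labelled RNA and 2642 in wild-type RNA, so this direction too rests on the scaling. Prss34 and Mcpt8, basophil protease genes, were detected in wild-type RNA alone, with measured differences of −2.46 ± 0.36 and −1.56 ± 0.48. Their bounds, which are not strict limits, were 5.52-fold and 2.10-fold lower on the knockout-labelled array. Hdc, the histamine synthesis gene, was at −1.42, and Ms4a2 and Fcer1a were not above background on either array. In the same list Cpa3 was at −0.31 ± 0.225 and Gata2 at 0.01 ± 0.21. Kit, the stem cell factor receptor gene of mast cells, was the highest of that list at 0.58 ± 0.21. Cpa3, Gata2 and Kit were named after their values were seen. The list mixes mast cell and basophil genes, so its median is not a value for mast cells alone. NK cell genes, 10 of 10 measured, had a median of 0.12, with none at 2-fold, beside 4.83% of all genes. The part of these cells in the Lat value was not tested.

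Other cell markers differed on the same arrays. Neutrophil and precursor genes were lower, with 10 of 11 at 2-fold and a median of −2.14, and all 14 acinar pancreas genes were at least 2-fold higher, with a median of 3.95. B cell genes had a median of 0.10 with 1 of 11 at 2-fold, higher, and monocyte and macrophage genes a median of −0.05 with 0 of 8. Dendritic cell genes had a median of 0.21 with 1 of 7 at 2-fold, lower and detected on the wild-type array alone. Erythroid genes had a median of −0.69 with 3 of 9 at 2-fold, all lower. Over all genes, 2.26% were 2-fold lower and 2.57% higher. The part of these cells in the values of the T cell receptor genes was not tested.

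**Figure D5:**
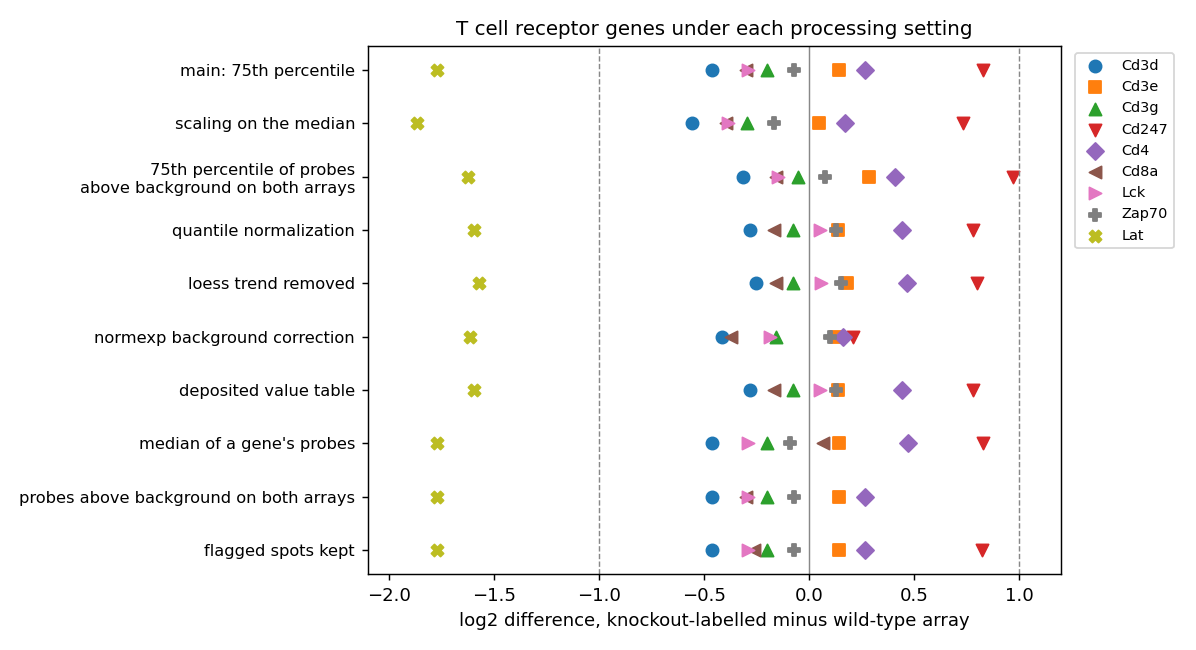
Log2 difference of the 9 genes under the main setting and 9 others, each row a setting and each symbol a gene. Lat lies between −1.87 and −1.57 in every row, apart from the other genes, which lie within the dashed 2-fold lines, and Cd247 has no point where probes had to be above background on both arrays.

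Lat was the single gene of the 9 past 2-fold under each of 9 other processing settings, at −1.87 to −1.57. These settings are not independent checks. Probe medians, detection on both arrays and kept outlier spots could hardly move Lat, which has 1 unmarked probe detected on both arrays. Its rank from the lowest ran from 38 to 92 over these settings, and its distance from the median of the other genes from −1.76 to −1.57. In the authors' deposited value table, which holds log2 values, the difference of Lat was −1.59, nearly the same value as with quantile normalization. Cd3d and Cd3g were below 0, and Cd3e and Cd4 above 0, under all 9 settings, while the signs of Cd8a, Lck and Zap70 turned under at least 1 of them. Cd247 was above 0 under the 8 settings that gave it a value.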

How the data were processed

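RNA from mouse spleen was hybridised to 2 single-colour Agilent arrays, 1 labelled Loxl3 knockout and 1 wild type, and the labelled genotype sets the groups. Per the labels' protocols, total RNA was column-cleaned and labelled with Cy3. As deposited, each scanner file gives a linear intensity for every spot, and their headers name Feature Extraction 11.0.1.1, the settings GE1_1100_Jul11 and the build mm9. The authors' deposited value table holds log2 values with 1 common distribution for both arrays, and its steps are not given in the sources used here.

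Of 43020 spots per array that were no controls, those marked as outliers (132 on the knockout-labelled array, 110 on the wild-type array) were left out, and none was saturated. Log2 processed signals of a probe's spots were averaged, giving 39420 probes, and each array's 75th percentile was subtracted. Probe accessions, versions dropped, were looked up among RefSeq transcripts of GRCm38.p6, which named 27226 probes and 20655 genes. A probe counted as above background on an array when the software called at least 50% of its spots so. Each gene took the brightest of its probes that passed background on at least 1 array, and 13034 of the 13716 genes were above background on both. Where 1 array did not detect a gene, a fold called its bound was also computed. It is the detected scaled signal divided by whichever was higher on the dim array, the probe itself or the lowest detected probe. It is not a strict limit, since some spots brighter than that lowest probe were not called above background. The software's errors of a probe's spots were combined as a root mean square. Precision is limited by the number of arrays.

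Named genes are the 9 T cell receptor genes with every probe and, of each pathway list, the genes at 2-fold or otherwise the extremes in each direction. Csk, Lcp2, Grb2, Kit, Cpa3 and Gata2 were added after their values were seen. The genes and the 16 lists were chosen with earlier results of these data known. Normexp was run on the median spot signal, and the mean spot signal was not used here. The steps of the main setting were tested on simulated data made from the wild-type array. The other processing settings were not tested in this way, and the simulated data held no trend with signal. Python 3.11.15, pandas 2.3.3, statsmodels 0.14.6, R 4.3.3 and limma 3.58.1 were used.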

Additional observations from a re-analysis of the deposited data

How the results depend on the processing

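Lat remained at least 2-fold lower, and the only one of the 9 genes at 2-fold, under each of 9 alternatives, at −1.87 with scaling on the median and −1.57 with the loess trend removed. Those that change the choice of probes or spots could hardly move Lat, which has 1 probe, and the deposited value table nearly repeats quantile normalization. The median of the 9 genes, −0.20, changed sign to 0.054 with quantile normalization, 0.056 with the loess trend removed and 0.055 in the deposited value table. It was between −0.29 and −0.05 under the other 6. Normexp background correction with an offset of 50 left 186 genes 2-fold lower and 151 higher, against 310 and 352. Taking the 75th percentile over only those probes that both arrays detected moved the median of all genes to 0.05, against −0.09, and gave 517 higher and 212 lower genes, and scaling on the median gave 293 higher and 418 lower. The cause was not tested. Where a gene's probes were reduced to their median, Cd8a was at 0.065 and Cd4 at 0.47. No paired analysis was possible because each group has 1 array. The number of arrays and the dim Cd247 signal limit these values.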

Other observations

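Gdpd3, a phosphodiesterase gene on chromosome 7 near Lat, had a signal of 112 in knockout-labelled RNA and 5088 in wild-type RNA, a difference of −6.03 ± 0.32 from 1 probe, and was singled out after its values were seen. The 19 measured genes between Lat and Gdpd3 lay between −0.75 and 0.68, and none was at 2-fold.

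Vav1, a guanine nucleotide exchange factor gene of the LAT complex, had differences of −0.45 and 0.26 from its brighter and dimmer probe, and was singled out after its values were seen.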
